A study of Homo sapiens with 6 samples.

Results

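DEAD and DEAH box RNA helicases are the families of ATP-driven proteins named for the amino acid letters of a motif that binds the nucleotide. Their genes were taken by symbol: every probe set whose only platform gene symbol starts with DDX or DHX and a digit, with 1 Y-linked gene left out, and for each gene the one probe set that was brightest on average over 6 arrays. This gave 55 of the 19775 genes measured, through 124 probe sets. Of the 55, 50 encode proteins and are called helicase genes below, and 5 are noncoding (DDX11-AS1, DHX9-AS1, DDX59-AS1, DDX19A-DT and the pseudogene DDX11L2). Another 7 probe sets carry a DDX or DHX symbol beside others and were not used, so DDX39B and DDX47 have no value here, while DDX5 rests on 1 dim probe set.

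The arrays hold RNA of K562, an established line from a human chronic myeloid leukaemia that carries the BCR-ABL1 fusion. In 3 samples the cells had received calactin, a cardenolide of plant origin that inhibits the sodium pump, at 0.15 mM for 12 h as the labels state it, and 3 samples were untreated cells of the same time. No vehicle is named for the untreated cells, and both groups are the same unmodified line. The comparison asks which helicase transcripts differed after exposure.

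DEAD box proteins pry apart short RNA duplexes or hold on to RNA, and DEAH box proteins pull on a single strand from its end. In the nucleolus such helicases open and close the base pairs between ribosomal RNA precursors and their guide RNAs. In the spliceosome they drive the changes of partner that the small nuclear RNAs go through, and in the cytoplasm they act in translation, in repression and in the decay of messenger RNA.

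Signals are linear intensities as deposited, tested as log2(intensity + 16), and a log2 difference is calactin minus untreated, so that a positive value is higher with calactin. A fold change on that scale understates the change of dim genes. A gene was called where limma gave a p-value under 0.05 after Benjamini-Hochberg adjustment across the 19775 genes. The median probe set read 31.1 to 32.0 in treated and 33.0 to 34.3 in untreated arrays. Spikes added to the RNA as polyadenylated transcripts had a geometric mean of 887 and 1135 in calactin replicates 1 and 2 and 1297 and 1896 in the untreated ones, but 83.4 and 112 in replicate 3. A control for the middle of 28S ribosomal RNA read 7119 to 13172 with calactin and 529 to 1051 without. Whether these controls move with the helicase values was not tested beyond the scalings and subsets given below. Of the erythroid markers GATA1, TAL1, KLF1, HBZ and EPOR, all 5 lay at 260 or more in every array; GATA1 was called lower (-0.86, adjusted p = 0.00752) and TAL1 higher (0.92, adjusted p = 3.87e-04). The B cell markers CD79A and MS4A1 lay at 53.4 or less in every array, while CD3D, LYZ, COL1A1 and EPCAM were well above that. Summed signals of the 5 erythroid markers were 16436 to 23043 with calactin and 15222 to 20979 without, of 4 fibroblast markers 904 to 1135 and 985 to 1218, and of the 2 B cell markers 44.1 to 73.6 and 42.8 to 62.1, all overlapping. The sums of 4 T cell markers (1727 to 1927 and 2233 to 2644), 3 monocyte markers (678 to 824 and 854 to 908) and 4 epithelial markers (2449 to 2703 and 2855 to 3182) were lower with calactin without overlap. Each of these sums was mostly 1 gene: CD3D at 1634 to 2550 units over the arrays, LYZ at 590 to 821 and EPCAM at 2411 to 3133. CD3D was called lower (-0.45, limma adjusted p = 0.00554), while LYZ (-0.25) and EPCAM (-0.21) were not called. Of their other genes, CD3E, CD8A, CD14, CSF1R, CDH1 and KRT5 had positive values and CD2 and KRT14 negative ones, none of them called. Their part in the results was not tested. The labels name the same line for every sample, so these sums were not read as numbers of T cells, monocytes or epithelial cells. Within that line, bulk RNA cannot tell fewer cells with a transcript from less of it per cell. The labels name biological replicates without saying what was separate. The p-values set the group difference against the spread between these samples, as limma moderates it over all genes.

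More helicase genes were called lower than higher with calactin on the deposited scale. Of the 50 helicase genes, 21 were called lower and 2, DDX6 and DDX3X, were called higher. Over all genes tested, 16.5% were called lower and 4.93% higher. The noncoding members added 0 calls in limma, though DDX11L2 had an unadjusted p of 0.020, so the counts over all 55 members are also 21 and 2. Most helicase genes are bright: 42 of 50 lay above the median signal, where 29.3% of all genes were called lower and 9.1% higher. The corresponding helicase counts there were 20 lower and 2 higher. The median helicase gene was at -0.26, and the median of all genes at -0.06. In 22 helicase genes every calactin array lay below every untreated array, and in 4 above it, and over all genes these shares were 24.4% and 10.3%. Above the median signal the groups were apart in this way in 3878 (lower) and 1473 (higher) of 9887 genes. Among the 42 helicase genes there the counts were 20 and 4. All 21 genes called lower were among the 22 helicase genes whose groups lay apart, so each was bound to be lower in all 3 replicate pairs.

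**Figure D1:**
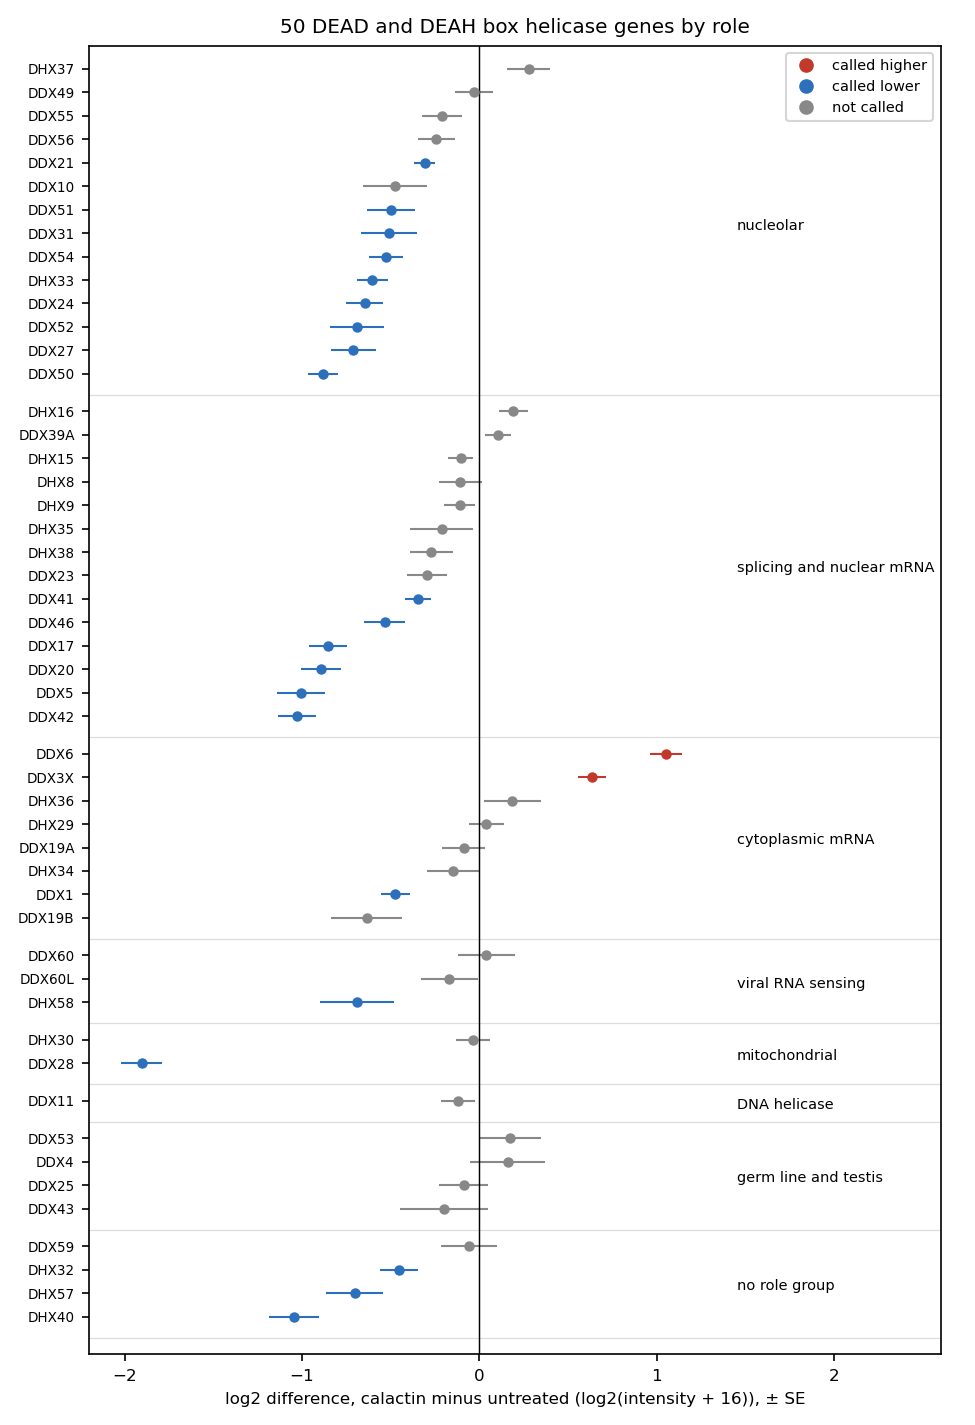
Log2 difference (calactin minus untreated) ± SE for each of the 50 helicase genes, grouped by role, with blue for genes called lower, red for called higher and grey for not called. Of the 14 nucleolar genes 13 lie left of 0, DDX6 and DDX3X are the 2 red points farthest right, and DDX28 is farthest left at -1.90; with poly-A spike scaling and the replicate block every point moves right by 0.57, which takes 8 of the 21 blue genes past 0.

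How these directions read depends on the scale. Scaling to the poly-A spikes, run with the replicate number as a block, moved the median of all genes to 0.51 and called 60.2% of all genes higher and 5.43% lower. On that scale 24 helicase genes were called higher and 7 lower: DDX28, DHX40, DDX42, DDX5, DDX20, DDX50 and DDX17. A further 6 stayed below 0 without a call, and 8 lay above 0: DDX1, DDX21, DDX31, DDX41, DDX46, DDX51, DDX54 and DHX32. The hybridisation spikes, added after labelling, moved the median of all genes to 0.042. They left the same 7 genes called lower and both rises called, against 7.04% and 2.82% of all genes. With the replicate block as well, DDX50 (adjusted p = 0.0648), DDX17 (0.0996) and DDX3X (0.167) lost their calls, so that 5 genes were lower and 1 higher (4.91% and 1.52% of all genes). The block on the deposited scale gave 22 lower and 2 higher (20.2% and 7.09% of all genes), and replicates 1 and 2 alone gave 11 and 2 (7.09% and 1.68%). Quantile normalization gave 17 lower and 4 higher, against 12.1% and 8.39%. Relative to the median of all genes, the helicase median was lower by 0.20 on the deposited scale and by 0.15 under quantile normalization. A spike scaling adds the same value to the difference of every gene, so this distance cannot change with it.

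**Figure D2:**
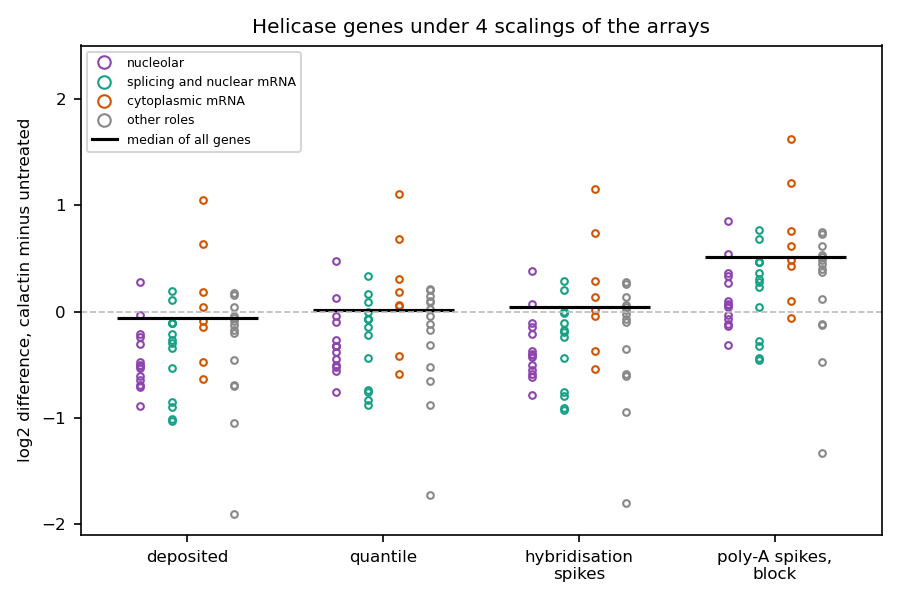
Log2 difference of every helicase gene under 4 scalings of the arrays, with the median of all genes as a black bar and 0 as a dashed line. On the deposited scale and under quantile normalization 12 of 14 nucleolar genes (purple) lie below the bar and DDX6 is the highest point; the spike scalings shift all genes and the bar alike, which takes the nucleolar median from -0.50 to 0.07 with poly-A spikes.

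The cytoplasmic helicases held both rises. DDX6, which represses translation and activates decapping in processing bodies, read 5142, 5124 and 4682 in calactin replicates 1, 2 and 3. The untreated arrays read 2345, 2695 and 2164. The groups were far apart, and the rise of 2.07-fold (log2 1.05 ± 0.09, SE, adjusted p = 1.35e-04) was the 86th largest of all genes. It was called under each of the 19 alternatives run. DDX3X, which helps ribosomes load on messenger RNAs with structured leaders, read 6713, 5601 and 6016 with calactin and 4009, 3715 and 4029 without. Again no calactin array came near an untreated one, at a rise of 1.55-fold (log2 0.64 ± 0.08, adjusted p = 6.31e-04).

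The promoters of both genes are shown because they were the helicase genes called higher, as the 250 bases before the outermost RefSeq start site (GRCh38.p14), 5′ to 3′ on the gene's strand. DDX6 is at chr11:118791745-118791994 on the minus strand and DDX3X at chrX:41333058-41333307 on the plus strand. Capitals, where present in a promoter here, mark a match on either strand to CACGTG (an E-box), CCGGAAGT (an ETS family site) or TGACGTCA (a cAMP response element).
DDX6: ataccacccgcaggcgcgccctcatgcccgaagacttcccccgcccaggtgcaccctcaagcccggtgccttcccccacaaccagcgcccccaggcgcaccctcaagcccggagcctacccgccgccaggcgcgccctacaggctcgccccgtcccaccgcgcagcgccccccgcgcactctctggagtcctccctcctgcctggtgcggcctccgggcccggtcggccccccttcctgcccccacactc
DDX3X: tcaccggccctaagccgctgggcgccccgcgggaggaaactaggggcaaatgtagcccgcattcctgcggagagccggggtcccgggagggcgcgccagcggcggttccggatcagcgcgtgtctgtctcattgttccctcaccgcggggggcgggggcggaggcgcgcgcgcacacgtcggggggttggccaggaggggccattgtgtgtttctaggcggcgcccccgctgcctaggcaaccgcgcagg
Neither window holds any of the 3 motifs, so all letters are in lower case. Both are rich in G and C, with 189 and 182 of 250 bases. In all 34943 RefSeq windows of that length, 6.32% held CACGTG, 3.39% CCGGAAGT and 1.63% TGACGTCA. Of the 61 windows listed for 46 of the members, 9, 7 and 5 did.

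The other cytoplasmic helicases did not follow DDX6. DDX1, a subunit of the transfer RNA ligase complex, read 3328, 3246 and 3529 with calactin against 4501, 4360 and 5218. Its groups did not overlap, and it fell by 0.47 ± 0.08 (adjusted p = 0.00322), a value that was 0.10 and not called under poly-A spike scaling. DHX36, which unwinds G-quadruplexes, read 1283, 1695 and 1760 with calactin and 1125, 1370 and 1678 without, so that its groups overlapped (0.19 ± 0.16, adjusted p = 0.524). DHX29, which assists scanning by the small ribosomal subunit, was at 0.040, and DHX34, of nonsense-mediated decay, at -0.15. Of the export helicases at the nuclear pore, DDX19A was at -0.09. The dim DDX19B, at 16.4 to 49.6 units over the arrays, was at -0.64 (adjusted p = 0.0563), and was called lower without untreated replicate 1 (0.0317). In all, 2 of 8 cytoplasmic genes were called higher, 1 lower and 5 not. Of the 8, 7 lay above the median signal, where 9.1% of all genes were called higher and 29.3% lower.

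**Figure D3:**
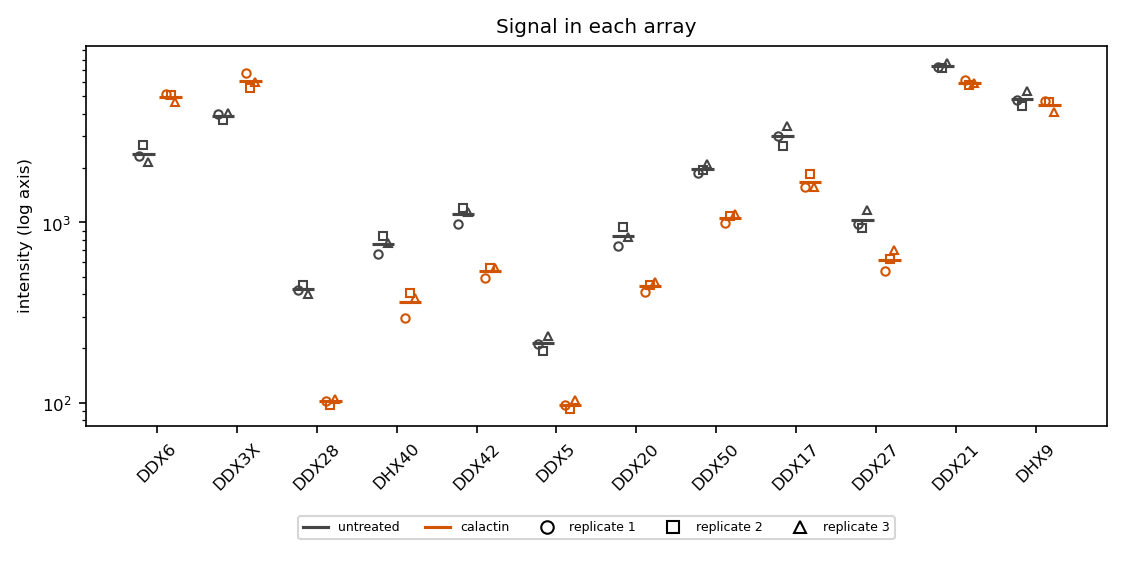
Intensity (log axis) of 12 helicase genes in each array, grey for untreated and orange for calactin, with a symbol per replicate and a bar at the mean of 3 arrays. DDX6 and DDX3X rise and 9 of the other 10 genes fall without overlap between the groups, while DHX9 overlaps; under poly-A spike scaling with the replicate block DDX21 is at 0.26.

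Nucleolar helicases gave the most calls of any role group on the deposited scale. Of 14, 9 were called lower and 0 higher, at a median of -0.50, with DDX52, whose probe sets disagree, among the 9. All 14 lay above the median signal, where 29.3% of all genes were called lower and 9.1% higher. With the probe sets of each gene averaged, 6 were called lower at a median of -0.26, as many as in the splicing group. With either spike scaling 1 was called lower against 4 of the splicing group. Of all genes, 7.04% were called lower with hybridisation spikes and 5.43% with poly-A spikes and the block. Of the positive values limma gave 1, that of DHX37, an unadjusted p under 0.05. DDX50 read 988, 1085 and 1118 with calactin and 1872, 1950 and 2106 without. This paralogue of DDX21 was thus lower in every array and fell 1.85-fold (log2 -0.88 ± 0.08, adjusted p = 2.01e-04). DDX21, which couples transcription by RNA polymerase I to ribosomal RNA processing, changed less: 6210, 5753 and 5916 with calactin against 7245, 7211 and 7686. That is a fall of 1.24-fold (-0.31 ± 0.06, adjusted p = 0.00542), and 0.26 with poly-A spikes.

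DDX50 and DDX21 lie next to each other on chromosome 10, at chr10:68901065-68901314 and chr10:68955920-68956169 for their promoter windows, both on the plus strand. They are shown because these neighbours both fell and both windows hold CCGGAAGT.
DDX50: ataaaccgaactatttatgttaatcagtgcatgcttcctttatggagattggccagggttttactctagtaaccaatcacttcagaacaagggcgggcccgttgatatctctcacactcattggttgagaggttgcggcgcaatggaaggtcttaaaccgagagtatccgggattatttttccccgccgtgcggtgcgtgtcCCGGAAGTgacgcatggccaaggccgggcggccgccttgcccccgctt
DDX21: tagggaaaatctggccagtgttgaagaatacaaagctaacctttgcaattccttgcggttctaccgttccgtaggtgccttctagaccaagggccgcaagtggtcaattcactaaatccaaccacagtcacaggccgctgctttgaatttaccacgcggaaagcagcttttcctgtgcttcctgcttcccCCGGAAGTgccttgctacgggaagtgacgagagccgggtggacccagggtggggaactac
The match starts 48 bases before the start site in DDX50 and 60 bases before it in DDX21. Over all members CCGGAAGT was in 3 of 23 windows of genes called lower, 4 of 32 of genes not called and 0 of 6 of genes called higher. Such a match is a description of the letters and not evidence of a bound factor.

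Among the other nucleolar genes, DDX27, a factor of large subunit assembly, read 537, 624 and 703 with calactin and 983, 930 and 1170 without. The lowest untreated array lay above the highest calactin one, and the fall was 1.64-fold (-0.71 ± 0.13, adjusted p = 0.00395). DDX24 fell by 0.65 ± 0.10 and DHX33, a promoter of RNA polymerase I transcription, by 0.60 ± 0.09. The DHX33 signal was near 467 in all calactin arrays and 688 to 742 in untreated ones, and the DDX24 groups were also apart. DDX54 fell by 0.53 ± 0.10 (adjusted p = 0.00449).

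The remaining nucleolar calls were less secure. DDX52 was called lower by its brightest probe set, while 2 others were called higher, as given below with its probe sets. DDX31 (-0.51, adjusted p = 0.0493) and DDX51 (-0.50, adjusted p = 0.0296) were dim, at 96.4 to 186 units over the arrays. Leaving out any calactin array, or untreated replicate 1 or 3, lost both calls, with adjusted p of 0.101 to 0.151 for DDX31 and 0.0709 to 0.106 for DDX51. DDX10 was not called at -0.48 ± 0.18 (adjusted p = 0.103). Its arrays read 659, 625 and 832 with calactin and 1023, 751 and 1223 without, so replicate 2 was low in both groups and the groups overlapped. With the replicate block DDX10 was called (adjusted p = 0.00562), as it was without untreated replicate 2 (0.0163). DDX55, DDX56 and DDX49 were not called at -0.21, -0.24 and -0.03, and DHX37, which acts in the small subunit precursor, was at 0.28 (adjusted p = 0.154).

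Among splicing and nuclear messenger RNA helicases the calls all fell on DDX genes. Of 8 DDX genes 6 were called lower, and of 6 DHX genes 0, where limma's unadjusted p was under 0.05 for DHX16 alone (0.0460, at a difference of 0.19). All 14 lay above the median signal, where 29.3% of all genes were called lower and 9.1% higher. Whether the subfamilies differ was not tested. DDX42, which binds the complex that recognises the branch site, read 493, 557 and 558 with calactin and 983, 1209 and 1140 without. The groups did not overlap and each pair stepped down alike, a fall of 2.04-fold (-1.03 ± 0.11, adjusted p = 2.86e-04). DDX46, a proofreader at the same step, read 1697, 1692 and 1857 against 2594, 2135 and 2945, with no overlap. Its fall of 0.53 ± 0.11 (adjusted p = 0.0102) turned to 0.039 with poly-A spikes, and its other probe set gave -1.02.

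DDX17 and DDX5 are close paralogues that act in splicing and as partners of transcription factors. DDX17 read 1580, 1851 and 1567 with calactin and 3013, 2663 and 3413 without. It fell 1.81-fold (-0.85 ± 0.11, adjusted p = 6.97e-04), with the smallest step in pair 2, at -0.52, against -0.92 and -1.11 in the others. DDX5 read 96.7, 92.4 and 104 against 212, 192 and 235 in its dim probe set, a fall of 2.01-fold (-1.01 ± 0.14, adjusted p = 9.50e-04). DDX20, of the complex that assembles spliceosomal particles, fell 1.86-fold from 744, 943 and 834 to 411, 450 and 469 (adjusted p = 6.80e-04). DDX41, a splicing-associated helicase mutated in some myeloid neoplasms, fell by 0.34 ± 0.07 (adjusted p = 0.00936) and was at 0.23 with poly-A spikes.

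The DEAH box motors of the splicing cycle gave small values. DHX15, which takes spent spliceosomes apart, read 5334, 5114 and 4936 with calactin and 5392, 5195 and 5981 without (-0.10 ± 0.07, adjusted p = 0.381). DHX9, a nuclear helicase that resolves RNA and DNA hybrids, read 4712, 4644 and 4123 against 4770, 4453 and 5367 (-0.11 ± 0.09, adjusted p = 0.459). The groups of both overlapped, and their lowest calactin array was replicate 3. DHX8, DHX35 and DHX38 were at -0.11, -0.21 and -0.27, with adjusted p of 0.638, 0.499 and 0.169. Of the DDX genes, DDX39A, an export helicase, read 4611, 4928 and 4292 with calactin and 4528, 4019 and 4298 without, groups that overlapped (0.11 ± 0.07, adjusted p = 0.411). DDX23, a helicase of spliceosome activation, was at -0.29 (adjusted p = 0.111) and was called without untreated replicate 2 (0.0319).

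The largest change of all helicase genes was that of DDX28, a mitochondrial helicase for the large ribosomal subunit of that organelle. It read 103, 97.7 and 105 with calactin and 424, 451 and 401 without. The arrays of each group lay close together and the fall was 3.74-fold (-1.90 ± 0.12, adjusted p = 5.64e-05), the 79th largest of all genes. It was called in all 19 alternatives, with a highest adjusted p of 0.0162. Its promoter is shown as that of the largest fall, at chr16:68023233-68023482 on the minus strand, with TGACGTCA 10 bases before the start site.
DDX28: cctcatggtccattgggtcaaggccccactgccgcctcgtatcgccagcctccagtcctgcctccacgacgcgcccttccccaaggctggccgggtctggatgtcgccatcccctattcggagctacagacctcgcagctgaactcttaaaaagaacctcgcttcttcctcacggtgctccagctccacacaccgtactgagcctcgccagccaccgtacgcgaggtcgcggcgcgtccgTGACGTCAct
DHX30, the other mitochondrial member, which works in the organelle's RNA granules, was at -0.04 ± 0.09 (adjusted p = 0.855), with calactin arrays of 1276 to 1317 inside the untreated range of 1225 to 1521. Of its 6 probe sets 1 was called lower, at -0.46 (limma adjusted p = 0.0345 over all probe sets). It read 199 to 240 units with calactin and 285 to 347 without. A dimmer probe set was at 0.37 and not called.

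Of the 4 genes without a role group, 3 were called lower. All 4 lay above the median signal, where 29.3% of all genes were called lower. DHX40 read 296, 407 and 383 with calactin and 668, 846 and 769 without, and its 2.06-fold fall (-1.05 ± 0.14, adjusted p = 0.00101) was called in all 19 alternatives. DHX57 read 87.1, 119.5 and 108 with calactin and 161, 207 and 174 without. Its groups did not overlap, and it fell by 0.70 ± 0.16, with an adjusted p of 0.0136 that was 0.0526 without calactin replicate 1. DHX32 fell by 0.45 ± 0.11 (adjusted p = 0.0161); its call was lost without calactin replicate 1 (0.0628) or untreated replicate 1 (0.053) or 3 (0.0717). DDX59 was at -0.06.

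Sensors of viral RNA and germ line helicases were near background. DHX58, a regulator among RIG-I-like receptors, read 1.3 to 5.1 units with calactin and 7.0 to 21.6 without. Its call (-0.69, adjusted p = 0.0472) held in 4 of 18 alternatives, and leaving out any array but untreated replicate 2 lost it (0.0895 to 0.158). DDX60 and DDX60L, at 19.2 to 35.0 units, were at 0.039 and -0.17. DDX4, DDX25, DDX43 and DDX53, genes of germ cells and testis, lay at 25.25 units or less in every array and were not called. DDX11, a DNA helicase of sister chromatid cohesion, was at -0.12 (adjusted p = 0.472).

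Separate probe sets tested the same transcripts again. Of the 50 helicase genes, 35 had more than 1, and of all 117 probe sets 32 were called lower and 7 higher, where 12.5% and 4.53% of all 41091 single-symbol probe sets were. For DDX3X, 4 of 6 were called higher, at 0.64 to 0.85, and the remaining 2 were dim. For DDX28, 3 of 4 were called lower, at -1.49 to -1.90, and both DHX40 probe sets gave -1.03 and -1.05. In DDX6 only the probe set that stood for the gene was called; the others, at 0.16 and 1.21, lay at 19.8 to 30.1 and at 23.2 to 373 units. With the mean of its probe sets DDX6 was at 0.81 (adjusted p = 0.0421).

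DDX52 was the 1 helicase gene whose probe sets were called both ways. Its brightest read 226, 288 and 279 with calactin against 381, 405 and 530, and was called lower at -0.69 ± 0.15. The next brightest pair of probe sets was called higher, at 0.50 and 0.49. The arrays of 1 of them read 357, 380 and 386 with calactin and 248, 267 and 268 without. Averaged over its probe sets DDX52 was at -0.0030 (adjusted p = 0.992), and a probe set with no shared sequence put it higher at 0.50 (adjusted p = 0.00810), so no direction is given for DDX52 beyond its single probe sets. DDX42 and DDX17 were smaller with the mean of their probe sets, at -0.61 and -0.44, and DHX57, DDX31 and DDX51 were not called with it, at -0.39, -0.24 and -0.18.

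**Figure D4:**
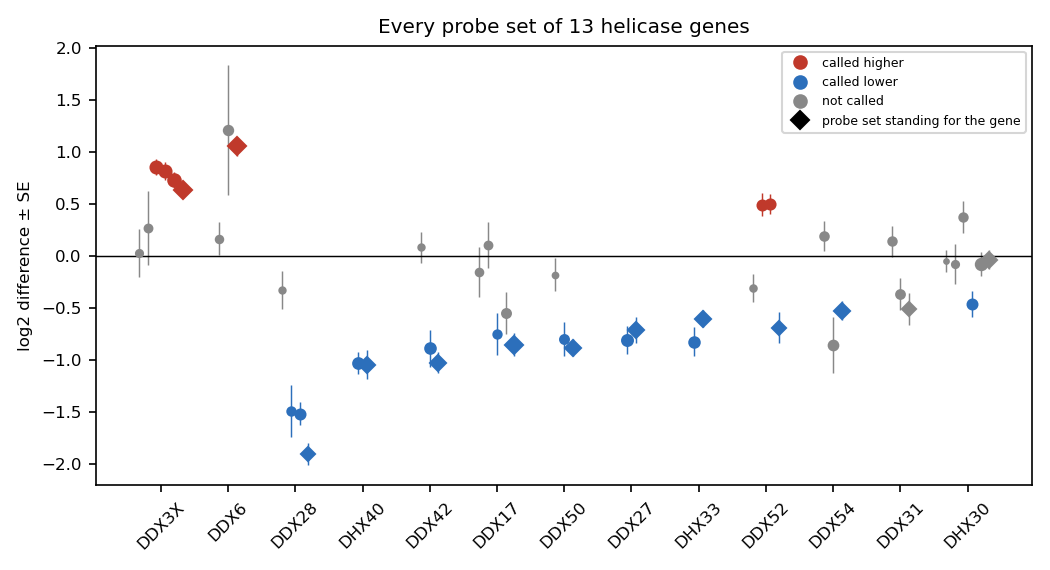
Log2 difference ± SE of every probe set of 13 helicase genes, with larger markers for brighter probe sets, diamonds for the probe set that stands for its gene, and colour for the call over all probe sets. Brighter probe sets of DDX3X, DDX28, DHX40 and DHX33 lie on one side of 0, while DDX52 has 2 called higher and 1 called lower.

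Genes that work beside the helicases were read from lists, chosen by function with earlier results of these data known. Over all genes 16.5% were called lower and 4.93% higher, and above the median signal 29.3% and 9.1%. Above that median lay all 28 spliceosome proteins, 18 of 19 G-patch proteins and 14 of 19 other RNA helicases. Of these 3 lists 39.3%, 36.8% and 36.8% were called lower. Whether any list differs from all genes was not tested. Of 39 ribosome biogenesis factors, the clients and partners of nucleolar helicases, 25 were called lower and 0 higher, at a median of -0.62 (-0.05 with poly-A spikes, 0.57 below the median of all genes). NOB1, an endonuclease of the small subunit, was at -1.52 ± 0.08, NOP14 at -1.47 ± 0.09 and TSR1 at -1.21 ± 0.09. Of 28 spliceosome proteins, 11 were called lower and 2 higher (median -0.22, -0.064 under quantile normalization and 0.36 with poly-A spikes; 1 higher without calactin replicate 1, 2 or 3). PRPF4 was at -0.83 ± 0.10, SNRPA at -0.49 ± 0.07 and BUD31 at 0.46 ± 0.06. Of 19 G-patch proteins, cofactors that switch on DEAH helicases, 7 were called lower and 1 higher (median -0.14, 0.015 under quantile normalization and 0.44 with poly-A spikes; 0 higher without calactin replicate 2). Without calactin replicate 1 that median was -0.050, and without untreated replicate 1 it was -0.21. AGGF1 fell by 1.27 ± 0.13 and NKRF by 0.88 ± 0.12, and RBM17 was at -0.51 ± 0.09, or 0.06 with poly-A spikes.

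Of 14 genes of messenger RNA export and the exon junction, 8 were called lower and 1 higher (median -0.41, and 0.16 with poly-A spikes; 5 lower without untreated replicate 3). With probe sets averaged, or those of unshared sequence preferred, 5 were called lower, at medians of -0.11 and -0.12. CHTOP rose by 0.78 ± 0.08, while THOC5 was at -0.77 ± 0.11 and SARNP at -0.75 ± 0.09. Of 19 RNA helicases with other names, 7 were called lower and 1 higher (median -0.10, and 0.47 with poly-A spikes), but 4 lower without calactin replicate 1 or 3 or untreated replicate 3. The median was -0.29 and -0.18 without calactin replicates 1 and 3, and -0.25 and -0.24 without untreated replicates 1 and 3. DICER1 was at -0.84 ± 0.14, EIF4A3, the clamp of the exon junction complex, at -0.42 ± 0.07 (0.15 with poly-A spikes) and HELZ at 0.62 ± 0.09.

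In the decapping and deadenylation list, whose products work with DDX6, calls were more often higher. Of 22, 11 were called higher, 2 lower and 9 not, at a median of 0.33 that was above that of all genes by 0.39 and was 0.19 with probe sets averaged. The median was 0.44 under quantile normalization and 0.41 with median centring. Because the spike scalings add the same value to every gene, the medians of 0.43 (hybridisation) and 0.90 (poly-A) are no separate test. Without calactin replicate 2 or untreated replicate 3, 7 were called higher. TNRC6C and TNRC6A, scaffolds of microRNA repression, rose 3.08-fold and 2.15-fold, and DCP1A, a decapping activator, 1.87-fold (log2 0.90 ± 0.10). Among direct partners of DDX6, picked after their values were seen, LSM14A was called higher at 0.25 ± 0.07, EIF4ENIF1 was called lower at -0.72 ± 0.13, and PATL1 (0.50 ± 0.20) and EDC3 (-0.07 ± 0.11) were not called. Of 18 interferon response genes, 2 were called lower and 0 higher. In limma IRF3 was at -0.82 ± 0.11 and ISG15 at -0.32 ± 0.09, the latter not called without any 1 array.

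**Figure D5:**
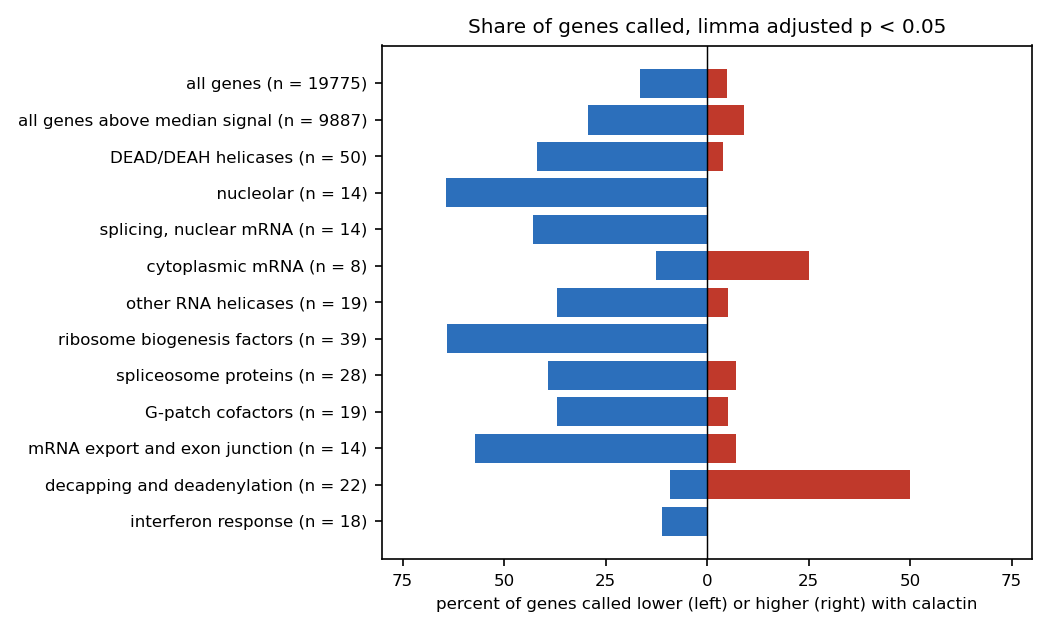
Percent of genes called lower (left, blue) or higher (right, red) in all genes, in helicase genes and their role groups, and in lists of functional partners, on the deposited scale. Nucleolar helicases and ribosome biogenesis factors reach 64.3% and 64.1% lower, and 11 of 22 decapping and deadenylation genes are higher. The 64.3% counts DDX52, whose probe sets were called both ways. With poly-A spike scaling the nucleolar median turns to 0.07.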

How the data were processed

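Total RNA of 6 K562 samples was extracted with Trizol, and 8 ug of each was made into biotinylated cRNA for a 1-colour Affymetrix array, per the labels' protocols. The authors deposited a linear intensity for every probe set on each array, with the summary algorithm not given in the sources used here, nor the scaling. Of 54675 probe sets, 41091 carry 1 gene symbol in the platform annotation, 1801 several and 11721 none, and 62 are controls. For each of 19775 genes the probe set with the highest mean log2(intensity + 16) was kept. limma 3.58.1 (lmFit, eBayes with a trend, R 4.3.3) tested calactin against untreated in a two-sided comparison, with Benjamini-Hochberg adjustment over all genes. The fit was run on simulated data with independent noise, which lack the shared deviations of same-numbered arrays given below. The number of arrays limits the precision.

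Members, role groups, lists and alternatives were chosen with earlier results of these data known. Values are given for the 10 largest falls and up to 6 rises (here 2) among called helicase genes and for a fixed set (DDX3X, DDX5, DDX6, DDX10, DDX17, DDX18, DDX21, DDX39A, DDX39B, DDX58, DHX9, DHX15 and DHX36, of which DDX18, DDX39B and DDX58 were not analysed here), and up to 3 genes of smallest p per list. Promoters are RefSeq's, on GRCh38.p14.

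Replicate numbers come from the sample titles. Over 9887 genes above the median signal, same-numbered arrays deviated together (correlation 0.544, 0.409 and 0.345 for numbers 1, 2 and 3). Numbers were therefore read as pairs in the pair differences and in the alternatives with the replicate block. The main fit had no block, so its calls, SE and adjusted p-values are unpaired. Spike scalings shifted each array's log2 values by the mean log2 of its spikes. The alternatives were quantile normalization, median centring, the spike scalings, pseudocounts 1 and 64, brighter genes only, other choices of probe set, eBayes without a trend, the replicate block, each array left out, and replicates 1 and 2 alone.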

Additional observations from a re-analysis of the deposited data

Results flagged for a closer look

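One measurement outside the gene comparison stood above its level in the untreated arrays: a control for the middle of 28S ribosomal RNA was 13.8 times as bright with calactin as in untreated arrays, at 7119 to 13172 against 529 to 1051 units. Its part in the helicase values was not tested.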

How the results depend on the processing

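On the deposited scale 21 helicase genes were called lower and 2 higher. With poly-A spike scaling and the replicate block the counts were 7 and 24, against 1074 lower and 11914 higher of all genes, and the helicase median turned to 0.32. Nucleolar calls were 1 lower and 4 higher, splicing calls 4 lower and 8 higher, and cytoplasmic calls 0 lower and 6 higher. With hybridisation spikes the helicase lower count was 7 (nucleolar 1, splicing 4, cytoplasmic 0), against 1393 lower and 557 higher of all genes. With the block added it was 5, with 1 higher (nucleolar 0, splicing 3, cytoplasmic 0 lower and 1 higher; all genes 971 lower and 300 higher). In replicates 1 and 2 alone, 11 were lower (nucleolar 4; all genes 1403 lower and 332 higher). Averaging a gene's probe sets left 6 nucleolar genes lower. Quantile normalization gave 4 helicase genes higher, DHX37 of the nucleolar (1) and DHX16 of the splicing group (1) among them, 1659 of all genes higher, and a helicase median of -0.13. Preferring unshared probe sets gave 1 nucleolar rise, that of DDX52, at 0.50. A pseudocount of 64 and averaging a gene's probe sets each gave 2 cytoplasmic genes lower. The replicate block alone gave 22 lower and 2 higher, adding DDX10, and changed no other helicase call.

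Leaving out 1 array at a time gave 16 to 23 helicase genes lower and 2 higher, 7 to 10 nucleolar and 6 to 7 splicing genes lower, and 1 to 2 cytoplasmic genes lower. Then all genes called higher numbered 644 to 1015, and all genes called lower 2390 to 3030. The causes were not tested. Under poly-A spike scaling 8 of the genes called lower changed sign, as did 3 uncalled genes of the fixed set and other uncalled genes with small negative values. The values of these 11 genes were DDX1 0.10, DDX21 0.26, DDX31 0.063, DDX41 0.23, DDX46 0.039, DDX51 0.075, DDX54 0.047, DHX32 0.12, DDX10 0.097, DHX9 0.46 and DHX15 0.47. Dim genes such as DHX58, near background, carry the least certain values.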
